A study of Mus musculus with 5 samples.

Results

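RING1B peaks of mouse embryonic fibroblasts (MEFs) that express human EZHIP were compared with those of the parental control MEFs. The comparison used the 821 peaks of the control library and the 311 peaks of the EZHIP library, 1132 of the 1418 peaks in the 3 lists read. A control peak was called kept when it shared at least 1 base with an EZHIP peak and lost when it shared none, and an EZHIP peak was called kept or new in the same way. The control cells carried floxed EED alleles that had not been deleted, and were derived from a mid-gestation mouse embryo. The EZHIP cells were the same parental line transduced with a lentivirus that drives human EZHIP from the constitutive EF1α promoter, so both groups carried the floxed alleles. RING1B was profiled by chromatin immunoprecipitation and sequencing (ChIP-Seq) of crosslinked, micrococcal nuclease digested chromatin. The series holds 5 samples, 1 library a side was compared here, and no replicate library measured the spread within a group. The lists give peak positions on mm9 without read counts or scores, so that sequencing depth is unknown and each difference below is a difference between 2 peak calls. Intervals are 95% Wilson binomial intervals and cover counting error only.

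RING1B is the catalytic subunit of Polycomb Repressive Complex 1 (PRC1), which ubiquitinates histone H2A at repressed developmental genes. PRC2 methylates histone H3 on lysine 27 (H3K27me3), a mark that CBX proteins of canonical PRC1 bind, and other forms of PRC1 reach CpG islands without that mark. EZHIP is an inhibitor of PRC2 that is highly expressed in posterior fossa type A ependymomas. The comparison asks which RING1B domains of MEFs were still called, and over what part of their length, in cells with that inhibitor.

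Windows of 200 bases show the kind of sequence found in each class of peak. They were read from the mm9 plus strand outside annotated exons, each is the bin-aligned window with the most CpG dinucleotides in its peak or in the stated part of it, and capitals mark CpG. The Neurog2 window stands for a domain that was nearly wholly covered in the EZHIP list and lies 554 bases from the Neurog2 start. Both Pax2 windows lie outside any gene and come from a kept domain with very low coverage. The Pax3 window comes from a lost domain and lies in no gene. The D19Ertd737e window comes from the widest new peak with little repeated sequence, also outside any gene.
Neurog2, covered, chr3:127335401-127335600: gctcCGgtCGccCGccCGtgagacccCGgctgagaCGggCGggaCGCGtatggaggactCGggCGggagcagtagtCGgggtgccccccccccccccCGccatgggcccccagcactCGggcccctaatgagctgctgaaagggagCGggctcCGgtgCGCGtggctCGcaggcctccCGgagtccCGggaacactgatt
Pax2, covered, chr19:44824201-44824400: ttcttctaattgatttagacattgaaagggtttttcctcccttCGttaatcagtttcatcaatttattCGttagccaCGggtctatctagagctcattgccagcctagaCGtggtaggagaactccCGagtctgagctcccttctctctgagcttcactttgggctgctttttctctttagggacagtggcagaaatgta
Pax2, uncovered, chr19:44821201-44821400: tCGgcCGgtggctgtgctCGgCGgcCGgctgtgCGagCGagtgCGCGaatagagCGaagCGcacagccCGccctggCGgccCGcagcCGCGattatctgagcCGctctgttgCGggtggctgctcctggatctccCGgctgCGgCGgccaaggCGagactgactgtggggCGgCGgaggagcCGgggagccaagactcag
Pax3, lost, chr1:78213601-78213800: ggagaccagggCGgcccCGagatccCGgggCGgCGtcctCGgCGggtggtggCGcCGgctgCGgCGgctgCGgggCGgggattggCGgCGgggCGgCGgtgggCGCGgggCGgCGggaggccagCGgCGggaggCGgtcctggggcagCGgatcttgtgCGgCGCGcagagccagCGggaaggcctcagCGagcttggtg
D19Ertd737e, new, chr19:60307001-60307200: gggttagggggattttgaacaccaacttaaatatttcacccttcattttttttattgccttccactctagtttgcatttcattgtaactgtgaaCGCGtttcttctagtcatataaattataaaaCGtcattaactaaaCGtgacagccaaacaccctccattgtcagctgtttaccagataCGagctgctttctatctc
The windows held 21 CpG at Neurog2, 5 in the covered and 25 in the uncovered window at Pax2, 30 at Pax3 and 5 at D19Ertd737e. The most CpG-dense window of the lost Pax3 domain thus held more CpG than the most CpG-dense window in the covered part of the Neurog2 domain.

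Of the 821 control peaks, 222 (27%, 95% interval 24.1 to 30.2%) were kept and 599 (73.0%) were lost. Of the 311 EZHIP peaks, 83 (26.7%, 95% interval 22.1 to 31.9%) were new. The authors describe RING1B and CBX2 as unchanged by EZHIP in their number and general distribution. The counts of the 2 lists differ from that description, and the reason was not tested. Kept control peaks spanned 3.07 Mb, of which the EZHIP peaks covered 1.33 Mb (43.1%), and lost control peaks spanned 2.43 Mb. The smallest stretch shared by a kept peak was 399 bases, which is also the narrowest EZHIP peak, and 33 of the 222 kept peaks (14.9%) shared no more than that. Only 2 lost peaks lay next to an EZHIP peak, separated by 1 base, one near Ppm1e and the other near Alox8, and the next closest was 9001 bases away. The lists differ in their narrowest peak, 1199 bases in the control and 399 bases in the EZHIP list, and 109 EZHIP peaks were under 1000 bases. The methods give a minimum peak size of 1000 for RING1B, which the EZHIP list does not meet, and a maximum gap of 10000, although neighboring peaks lay as close as 5201 bases in the control list and 8401 bases in the EZHIP list. Neither list thus matched the stated settings in full, and whether both were called alike is not known. A difference in settings and a difference between the cells cannot be told apart for the peaks that rest on narrow EZHIP peaks. When EZHIP peaks under 1000 bases were left out, the kept control peaks fell from 222 to 153 (18.6%).

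Gene starts were examined next, as the annotated 5′ ends of 22208 protein-coding genes. A start lay in a control peak for 624 genes (2.81%), and 111 of these starts (17.8%, 95% interval 15.0 to 21.0%) also lay in an EZHIP peak. When starts within 5000 bases of a peak were counted as well, the covered share was 28.2% of 783. A further 113 starts lay in kept control peaks but outside the part that the EZHIP peak covered, and 400 lay in lost peaks. The transcription factor genes in 13 lists (homeobox, PAX, bHLH, forkhead, SOX, T-box, GATA and zinc-finger families) had starts in control peaks for 187 of 408 genes, against 437 of 21800 other protein-coding genes. Of the 187 listed starts, 62 (33.2%, 95% interval 26.8 to 40.2%) were covered in the EZHIP list, 55 lay uncovered in a kept peak and 70 lay in a lost peak. Of the 437 other starts, 49 (11.2%, 95% interval 8.59 to 14.5%) were covered, 58 lay uncovered in a kept peak and 330 lay in a lost peak. Genes that share a peak are not independent, so the intervals are narrower than they should be.

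The share of peaks kept rose with peak width, from 6.72% of peaks of 1000 to under 2000 bases to 73.6% of those of 10000 bases or more, and no difference by gene class apart from width was shown. Control peaks with a listed transcription factor start were kept in 94 of 161 cases (58.4%, 95% interval 50.7 to 65.7%), those with another protein-coding start in 76 of 366 (20.8%, 95% interval 16.9 to 25.2%) and those with no start in 52 of 294 (17.7%, 95% interval 13.8 to 22.5%). Within peaks of 10000 bases or more, these shares were 76.9% of 104, 70.3% of 37 and 61.1% of 18, and the 3 intervals overlapped. From 5000 to under 10000 bases the order was another one, with 28.1% of 32, 35.7% of 56 and 31.1% of 45 kept. The intervals overlapped in each of the 3 narrower width classes, where listed starts were found in 3, 22 and 32 peaks. The portion of a kept peak that stayed covered did not follow the gene class in the same order. In kept peaks of 10000 bases or more it had a median of 39.5% with a listed transcription factor start, 34.5% with another start and 46.6% with none.

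**Figure D1:**
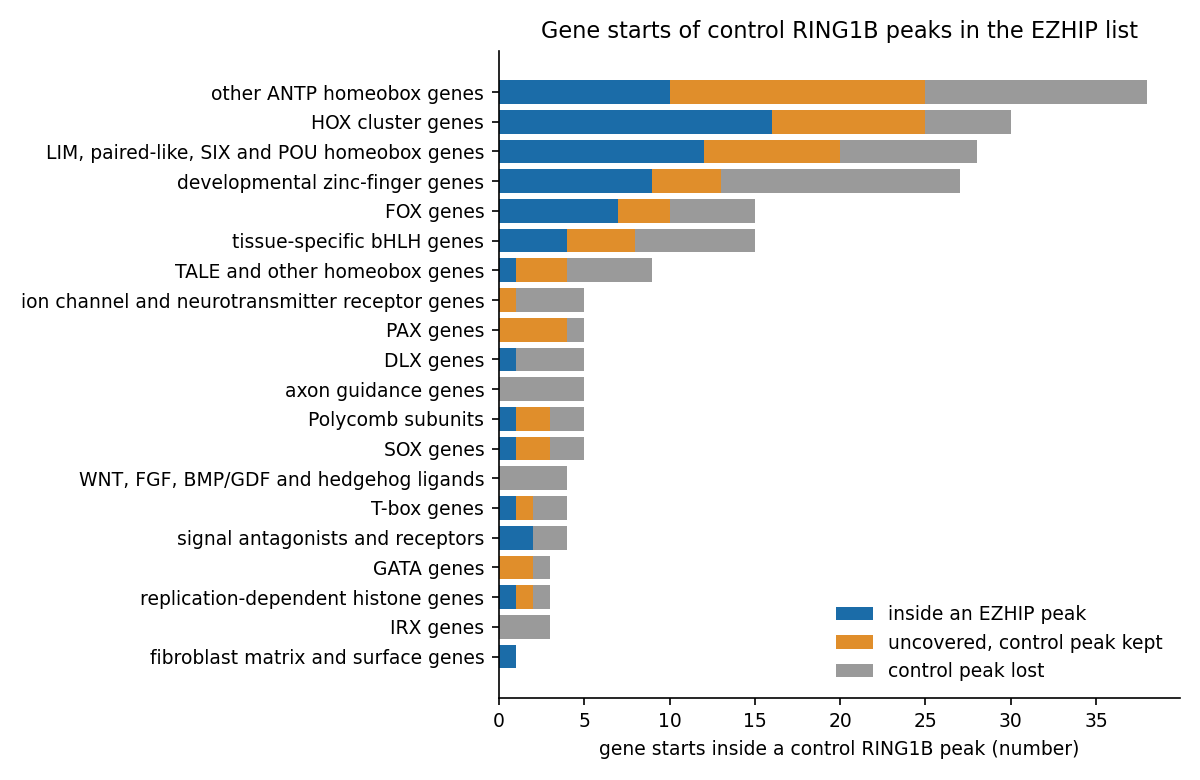
Number of protein-coding gene starts inside control RING1B peaks, by gene list, split by their state in the EZHIP list (blue, inside an EZHIP peak; orange, uncovered although the control peak was kept; grey, in a lost control peak). HOX genes had the most covered starts, 16 of 30. The PAX list had 0 of 5 and the IRX and GATA lists 0 of 3 each. The intervals of the PAX, IRX and GATA lists included the 17.8% covered over all protein-coding starts in control peaks.

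HOX genes, which specify position along the body axis, had the most covered starts of any list. Of the 39 HOX genes, 30 had a start in a control peak. Of these, 16 (53.3%, 95% interval 36.1 to 69.8%) were covered in the EZHIP list, against 17.8% of all protein-coding starts in control peaks. Another 9 lay uncovered in a kept peak and 5 lay in a lost peak. Many HOX starts share a wide peak, so that interval is narrower than it should be. The covered starts were Hoxa9, Hoxa10, Hoxa11, Hoxa13, Hoxb8, Hoxb9, Hoxb13, Hoxc9 to Hoxc13 and Hoxd10 to Hoxd13. The covered starts in each cluster thus ran from near the middle of the cluster toward the posterior genes. A split by paralogue group, chosen after these values were seen, gave 15 of 16 starts covered for groups 9 to 13 and 1 of 14 for groups 1 to 8. The control list was itself weighted toward posterior genes, since it held all 16 starts of groups 9 to 13 and 14 of the 23 starts of groups 1 to 8.

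In all 4 clusters the EZHIP peak over the most anterior covered start ended short of the next HOX start, which lay in the same control peak. In HoxA the EZHIP peak of 41999 bases ended 4687 bases beyond the Hoxa9 start and stopped 4548 bases short of Hoxa7. The control peak of 71399 bases reached on over the uncovered starts of Hoxa7, Hoxa6 and Hoxa5 and ended before that of Hoxa4. It also held the Hoxa3 start, because the annotated 5′ end of Hoxa3 lies between the starts of Hoxa7 and Hoxa6. In HoxB the EZHIP peak ended 1780 bases past the Hoxb8 start and 572 bases short of Hoxb7. In HoxC the EZHIP peak of 80599 bases ended 6529 bases past Hoxc9 and 7654 bases short of Hoxc8. The uncovered side of that control peak also held Hoxc6, and Hoxc5 lay in a neighboring control peak of 9999 bases of which 3.99% was covered. In HoxD the EZHIP peak of 40799 bases ended 252 bases past the Hoxd10 start and 6338 bases short of Hoxd9. Hoxb3, Hoxb4 and Hoxb5 shared a lost peak of 37599 bases, and the starts of Hoxd8 and Hoxd3 lay in lost peaks of 1999 and 1199 bases. The annotated 5′ end of Hoxd3 lies between the starts of Hoxd8 and Hoxd4.

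PAX genes, a family of paired-domain regulators of organ and neural development, had a start in a control peak for 5 of the 9 genes, and 0 of these 5 were covered. The 95% interval, 0 to 43.4%, included the 17.8% covered over all protein-coding starts in control peaks. Pax7, a regulator of muscle stem cells, lay in a control peak of 16199 bases of which 55.6% was covered. The portions were 25% of 37599 bases at Pax6, which directs eye development, and 20.4% of 19599 bases at Pax5, a B-cell regulator. At Pax2, needed for the kidney, 2 EZHIP peaks of 399 bases each covered 2.66% of 29999 bases. The control peak of 30199 bases at Pax3, a neural crest and muscle regulator, was lost. Thus 4 of the 5 PAX starts lay in kept peaks, with covered portions from 2.66 to 55.6%.

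The DLX homeobox list had 1 of 5 starts covered (95% interval 3.62 to 62.4%), and the GATA zinc-finger and IRX homeobox lists 0 of 3 each (95% interval 0 to 56.1%). These intervals too included the 17.8% over all starts. Gata4, a heart and endoderm regulator, lay at the very end of a control peak of 41799 bases, and the EZHIP peaks inside it covered 16.7%. At Gata6, of like function, 3.50% of 11399 bases was covered, and the peak of 15999 bases at Gata3, a T-cell regulator, was lost. Among DLX genes, which pattern the forebrain and jaw, the Dlx6 start was covered by an EZHIP peak of 8999 bases in a control peak of 18799 bases. The other DLX starts lay in lost peaks, with Dlx1 and Dlx2 together in a peak of 19599 bases, Dlx4 in 11199 bases and Dlx3 in 2399 bases. All 3 IRX starts in control peaks, those of Irx1, Irx3 and Irx5, lay in lost peaks of 10599, 6399 and 13599 bases.

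Other homeobox genes were divided between the states. In the list of other ANTP-class genes, 10 of 38 starts were covered, 15 lay uncovered in a kept peak and 13 in a lost peak. The interval of that covered share, 15.0 to 42.0%, included the 17.8% over all protein-coding starts in control peaks. Covered starts in the widest peaks were Evx2, which shares the HoxD domain, Nkx2-3 (61.8% of 28799 bases), Lbx1 (68.9% of 26399 bases) and Mnx1, a motor neuron factor (42.1% of 25199 bases). Uncovered starts included Vax2 (29.4% of 35399 bases covered) and Barhl2 (4.79% of 29199 bases), and the widest lost peaks were those of Cdx2, an intestinal and trophoblast regulator (24199 bases), and En1, a midbrain and limb regulator (21199 bases). The list of LIM, paired-like and POU genes also holds the Six3 family. In it, 12 of 28 starts were covered, 8 lay uncovered in a kept peak and 8 in a lost peak. The interval of the covered share in this list, 26.5 to 60.9%, lay above 17.8%, with peak widths not matched between lists. Covered starts here included Pou3f2 (80.5% of 22599 bases), a neural POU factor, Isl1 (71.4% of 22399 bases), Otp (71.0% of 24799 bases) and Uncx (53.6% of 36199 bases). The start of Six3, a forebrain factor, lay uncovered in a peak of 24399 bases of which 3.27% was covered. The ONECUT paralogues had 1 gene in each state. The Onecut2 start was covered (75.8% of 18999 bases), the Onecut1 start lay uncovered in a kept peak (3.54% of 22599 bases), and Onecut3 lay in a lost peak of 17399 bases.

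The remaining transcription factor lists were similarly divided. Over all protein-coding starts in control peaks, 17.8% were covered. The interval of the covered share lay above this for forkhead (24.8 to 69.9%) and zinc-finger genes (18.6 to 52.2%). It included 17.8% for bHLH (10.9 to 52.0%), SOX (3.62 to 62.4%) and T-box genes (4.56 to 69.9%). Peak widths were not matched between these lists. Among tissue-specific bHLH genes 4 of 15 starts were covered, and Neurog2, a neurogenic factor, kept 91.5% of 18799 bases, the highest portion in kept peaks of 10000 bases or more apart from 2 wholly covered peaks of repeated sequence on chromosome 9. Its paralogue Neurog1 lay in a lost peak of 10799 bases. Forkhead (FOX) genes had 7 of 15 starts covered, among them Foxd1 (77.8% of 17999 bases), Foxb1 (63.3% of 21799 bases) and Foxa1 (50.9% of 21199 bases). The start of Foxa2, like Foxa1 a pioneer factor of endoderm, lay outside the 7.30% of its 27399 bases that was covered, and Foxf1a and Foxf2 lay in lost peaks of 17599 and 16399 bases. Zinc-finger genes had 9 of 27 starts covered. Zic2, a neural tube regulator, was covered in a control peak of 28999 bases of which 84.1% stayed covered, whereas the adjacent Zic5 start lay in the same control peak but outside the EZHIP peak. Sp8, a limb bud factor, was covered in a peak retained over 81.1% of 24399 bases, and Wt1, a kidney and gonad regulator, lay in a lost peak of 14999 bases. SOX genes had 1 of 5 starts covered (Sox21) and T-box genes 1 of 4 (Tbx20). Sox2, a stem cell and neural factor, lay uncovered in a peak retained over 18.4% of 24999 bases, and Tbx1 lay in a lost peak of 14399 bases.

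Starts of signaling and axon genes in control peaks were few. All 4 ligand starts, those of Wnt1, Wnt3a, Wnt9a and Ihh, and all 5 axon guidance starts lay in lost peaks, which spanned from 1199 to 4599 bases. Most control peaks of such width were lost, since 6.72% of control peaks of 1000 to under 2000 bases and 15.8% of those of 2000 to under 5000 bases were kept, and 400 of all 624 starts lay in lost peaks. Of the signal antagonists and receptors, Wif1, an inhibitor of WNT ligands, was covered over 90.5% of a peak of 4199 bases and the WNT receptor gene Fzd3 over 25% of 1599 bases, while Nog and Ptch1 lay in lost peaks. Ion channel and neurotransmitter receptor genes had 4 of 5 starts in lost peaks and none covered. These counts are too small to order the lists or to set them apart from all starts.

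Polycomb genes themselves had 5 of 30 starts in control peaks. Cbx2, a chromodomain subunit of canonical PRC1, was covered by an EZHIP peak of 599 bases in a control peak of 2399 bases. Cbx8, another such subunit, lay close to the end of a control peak of 18599 bases of which 80.6% was covered, but outside the EZHIP peak. Pcgf1 shared a kept peak with Tlx2 and was not covered, and Bmi1, a core PRC1 subunit, lay in a lost peak of 8599 bases. No start of the 7 INK4 and CIP cell-cycle inhibitor genes lay in a peak of either list. The same held for 16 housekeeping genes, 24 clustered protocadherins and 1087 olfactory receptor genes. Of 15 fibroblast matrix and surface genes, 14 had no start in a control peak, and the exception was Pdgfra, where 599 of 5399 bases were covered. Peak positions do not measure expression, so that the fibroblast label was not tested further.

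Within the 222 kept control peaks the covered portion reached 100%, with a median of 33.6% and quartiles of 15.4 and 63.0%. Without EZHIP peaks under 1000 bases the median was 50.9% in the 153 peaks still kept. In 37 peaks it was under 10% and in 79 it was over 50%, and 5 were wholly covered. Few kept peaks held more than 1 EZHIP peak. No 2 EZHIP peaks lay closer than 8401 bases, and kept control peaks had a median width of 10799 bases. Many control peaks could thus hardly hold 2 EZHIP peaks, so these counts do not show whether coverage was split. A single EZHIP peak lay in 215 of the 222, and 2 EZHIP peaks lay in each of the other 7, at Nr2e1 and Ostm1, Gata4, Pax2, Pax5, Six3, Vax2 and a region of chromosome 17 with the start of Gm8909. Of the 228 kept EZHIP peaks, 211 lay wholly inside control peaks and 17 reached past one. The median covered portion was 33.3, 26.1, 25.6 and 39.9% in control peaks of 1000 to under 2000, 2000 to under 5000, 5000 to under 10000, and 10000 or more bases.

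Kept peaks were trimmed at their ends and covered at their center. Of the 444 ends of kept peaks, 414 lay outside the EZHIP peak, 20 were passed by it and 10 coincided with it. The median length lost at an end was 2400 bases, with quartiles of 1000 and 4800 bases. Neither end was covered in 197 of 222 peaks (88.7%, 95% interval 83.9 to 92.3%), whereas the midpoint was covered in 125 (56.3%, 95% interval 49.7 to 62.7%). In 85 peaks neither the midpoint nor an end was covered. When each kept peak was divided into 10 equal parts, the mean covered share was 12.6 and 8.56% in the outermost parts and 57.6 and 58.2% in the central parts. The central parts were covered more than the outermost parts in 154 peaks, less in 21 and equally in 47. The difference between central and outermost parts was 30.8 percentage points in the narrowest width class, 34.7 and 48.8 points in the next classes, and 54.0 points in peaks of 10000 bases or more.

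**Figure D2:**
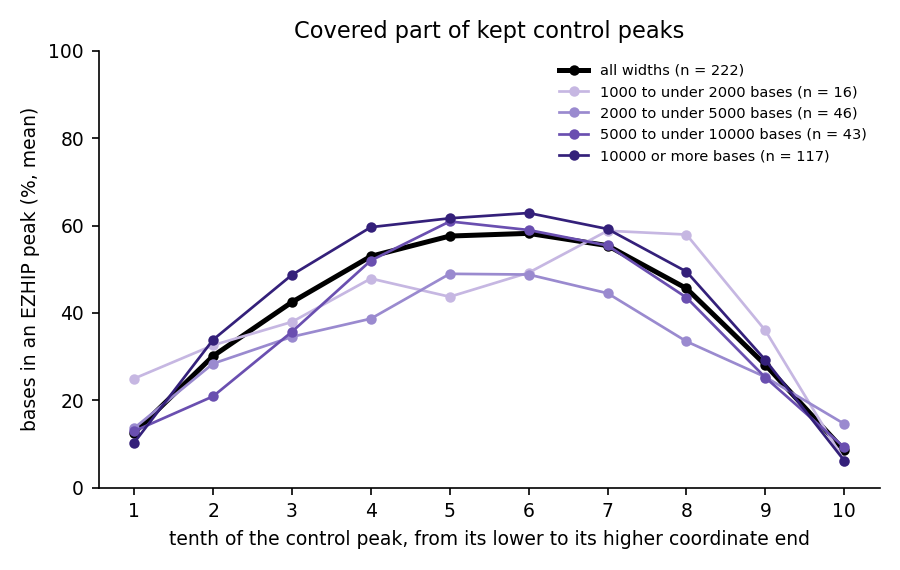
Mean share of bases inside an EZHIP peak (vertical axis, %) in each 10% of the length of the kept control peaks, for all 222 peaks (black) and by control peak width (purple, darker is wider). The outermost parts were at 12.6 and 8.56% and the central parts at 57.6 and 58.2% over all widths.

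A peak that lies wholly inside a longer one covers its center more often than its ends at nearly any placement. The position of the EZHIP peak within the free length was therefore measured for the 197 control peaks that held a single EZHIP peak inside both ends, from 0% for a centered peak to 100% for one flush with an end. Peaks placed evenly over the free length would have a median of 50%. The observed median was 36.1%, with quartiles of 20 and 55.6%. It was 35.2% in the 104 control peaks of 10000 bases or more and 38.5% in the 93 narrower ones, so retained peaks lay nearer to the center than an even spread in both.

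**Figure D3:**
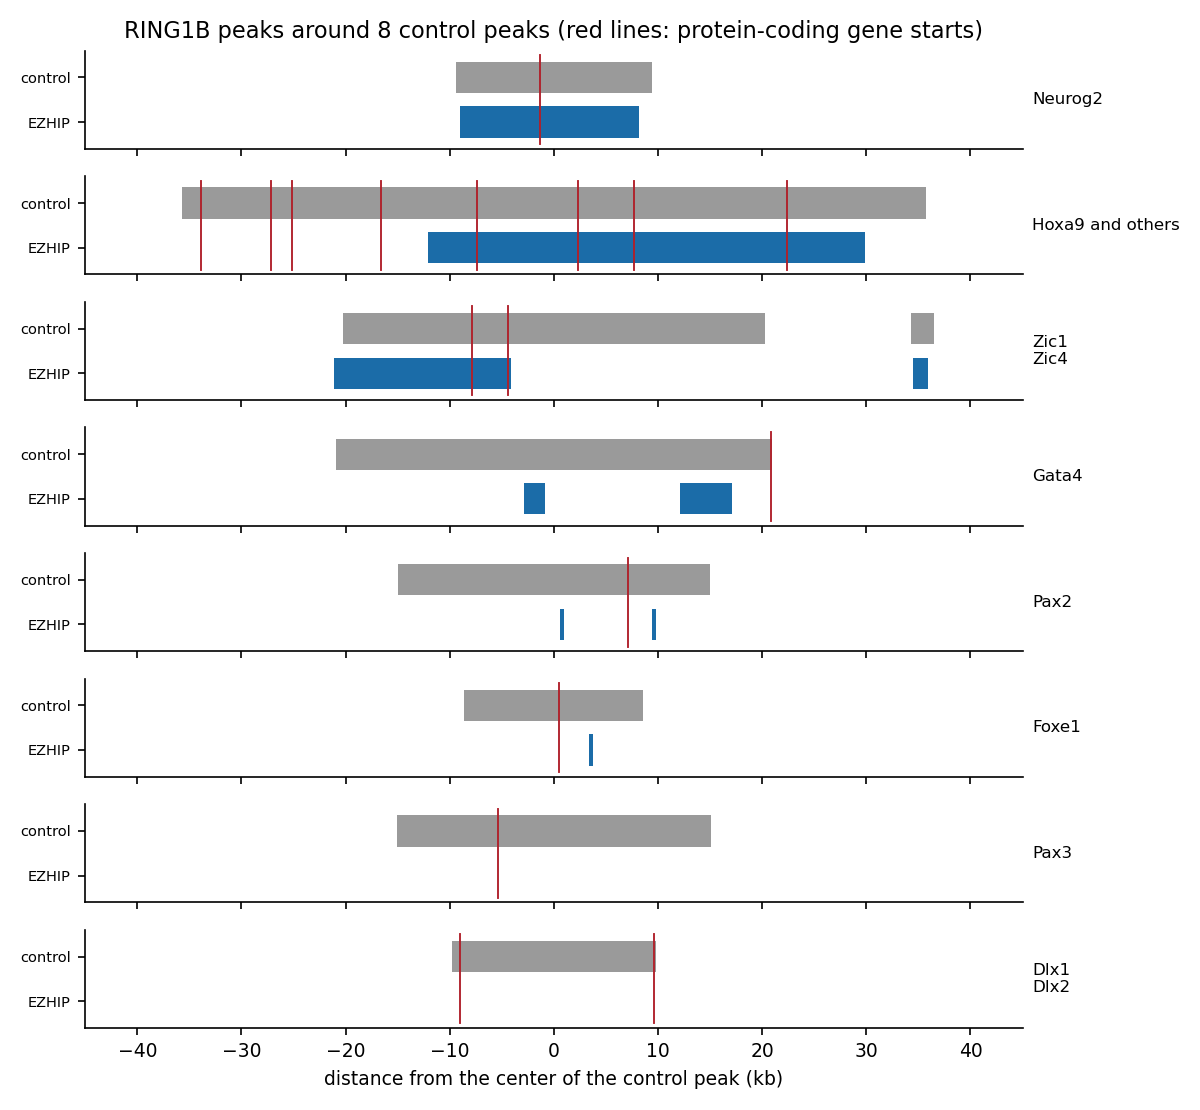
Control (grey) and EZHIP (blue) RING1B peaks around 8 control peaks, by distance from the center of the control peak in kb, with protein-coding gene starts of the control peak in red. The Neurog2 domain was 91.5% covered and the Foxe1 domain 2.32%, and no EZHIP peak was called at Pax3 or Dlx1.

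The map of example domains shows how the retained stretch was placed. The EZHIP peak at Neurog2 stopped 400 bases from the lower-coordinate end and 1200 bases from the other. At Zic1 and Zic4, adjacent zinc-finger genes of cerebellar development, the EZHIP peak of 16999 bases covered both starts and reached past the lower-coordinate end of a control peak of 40599 bases. That peak was covered over 39.9% and entirely on its lower-coordinate side. Both EZHIP peaks at Pax2 and the EZHIP peak at Foxe1, a thyroid factor, were 399 bases wide and lay away from the gene start. Domains of similar width in the control therefore differed widely in what remained, as with Pax2 (29999 bases, 2.66% covered) and Zic2 (28999 bases, 84.1% covered).

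In the 170 kept peaks with a protein-coding start, 111 of 224 starts (49.6%) were covered, and the mean covered portion of those peaks was 45.3%. The wholly covered peaks of repeated sequence on chromosome 9 held 2 and 8 of these covered starts. Bins of 200 bases within 1000 bases of a start were then set beside the other bins of kept peaks at the same distance from the nearer end. In the outermost 10% of the width they were covered at 23.0% against 8.18%, and in the innermost at 67.2 against 61.4%. Between these, the shares were 36.0 against 33.6%, 49.9 against 50.3% and 59.1 against 59.7%. Bins near starts were thus covered more often at the ends of peaks and about as often in the parts between. Coverage in bins of 200 bases was 50.3% from 1 kb upstream to the start and 50.8% over the first kb downstream. It was 55.1% at 1 to 2 kb and 55% at 2 to 5 kb downstream, 43.4% at 5 to 10 kb and 18.3% at 10 to 20 kb, where 56 peaks had bins. On the upstream side it was 44.1% at 2 to 5 kb, 38.8% at 5 to 10 kb and 34.9% at 10 to 20 kb, where 25 peaks had bins.

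**Figure D4:**
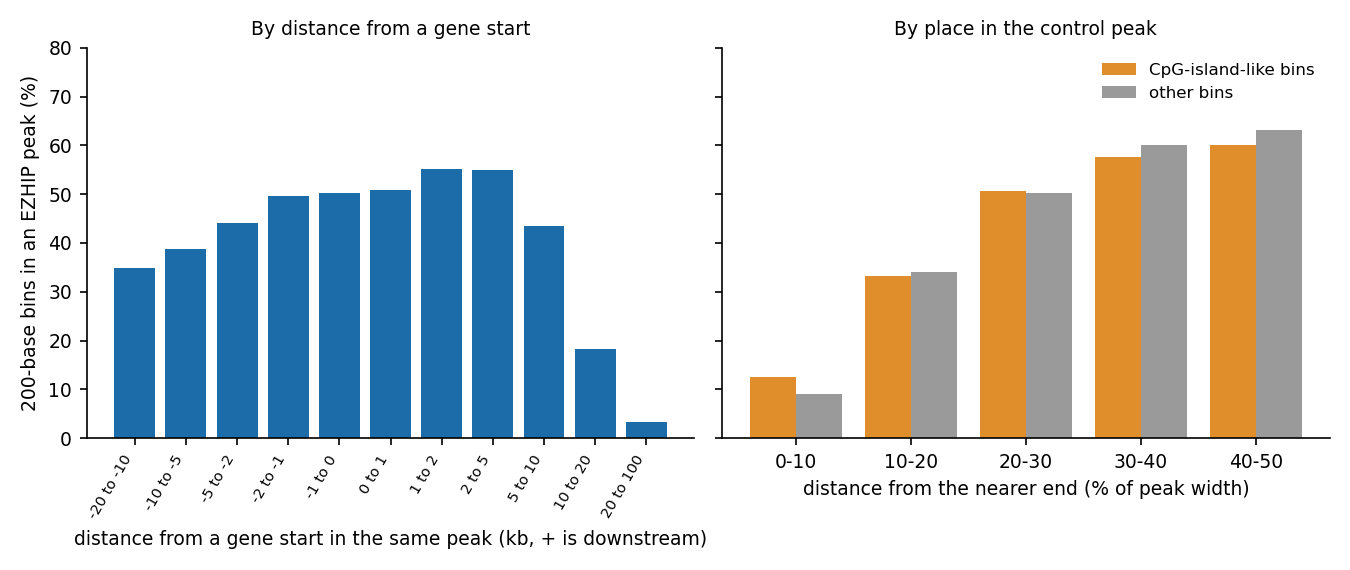
Share of 200-base bins of kept control peaks that lay in an EZHIP peak (vertical axis, %), left by distance from a gene start in the same peak in kb and right by distance from the nearer end of the control peak, for CpG-island-like (orange) and other (grey) bins. Coverage was highest from 1 to 5 kb downstream of starts, at about 55%, and rose from the ends to the center for both kinds of bin.

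CpG-rich sequence was covered little more than the rest of the same peaks. CpG-island-like sequence (500-base windows whose G and C content reached 55% and whose CpG frequency reached 0.65 of that expected from base composition) made up 623 kb of the kept control peaks, of which 46.9% was covered, against 42.2% of the other 2452 kb. Among 203 kept peaks with both kinds of sequence, the island-like part was covered more in 109, the other part more in 93, and they were equal in 1. At matched distance from the nearer end the shares were close. Island-like bins were covered at 12.6% and other bins at 9.05% in the outermost 10% of the width, and at 60.1 and 63.1% in the innermost. By CpG number, coverage was 38.5% in bins with 0 or 1 CpG and 48.0% in bins with 16 or more.

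Lost control peaks were richer in CpG than kept ones, but they were also narrower. The median was 48.4 CpG per kb in lost and 30.3 in kept peaks, and island-like sequence made up a median of 47.2 and 22.2% of their length. Island-like sequence was present in 90.8% of lost and 92.3% of kept peaks. The difference in CpG was smaller at matched width. In peaks of 10000 bases or more the median was 30.3 CpG per kb in lost and 27.7 in kept peaks. From 5000 to under 10000 bases it was 34.9 in lost and 36.6 in kept peaks, from 2000 to under 5000 bases it was 49.6 in lost and 40.1 in kept peaks, and from 1000 to under 2000 bases it was 73.0 in lost and 60.6 in kept peaks. The direction thus reversed in the class from 5000 to under 10000 bases. A wide peak holds flanking sequence besides its islands, and the part of width in these medians was not tested further.

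New EZHIP peaks differed from kept ones in sequence. Of the 83 new peaks, 33 (39.8%, 95% interval 29.9 to 50.5%) had more than 50% repeated sequence, measured as 32-base words found elsewhere in the genome, against 11 of 228 kept EZHIP peaks (4.82%, 95% interval 2.72 to 8.43%). These 33 peaks held 0.313 of the 0.459 Mb of new peaks (68.2%). Island-like sequence was present in 22 of 83 new and 168 of 228 kept EZHIP peaks, and the median was 9.17 and 30.6 CpG per kb. Of the new peaks, 15 held a protein-coding start. A run of 8 new peaks lay at chr5:14923601-15201599, spanned 137392 bases in all and had between 64.7 and 89.7% repeated words. It held the start of Speer4e, a member of a tandemly duplicated, spermatogenesis-associated family, and 4 more new peaks lay together at chr8:19892801-20033199. Reads from repeated sequence cannot be placed with certainty, and their part in the new peaks was not tested.

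**Figure D5:**
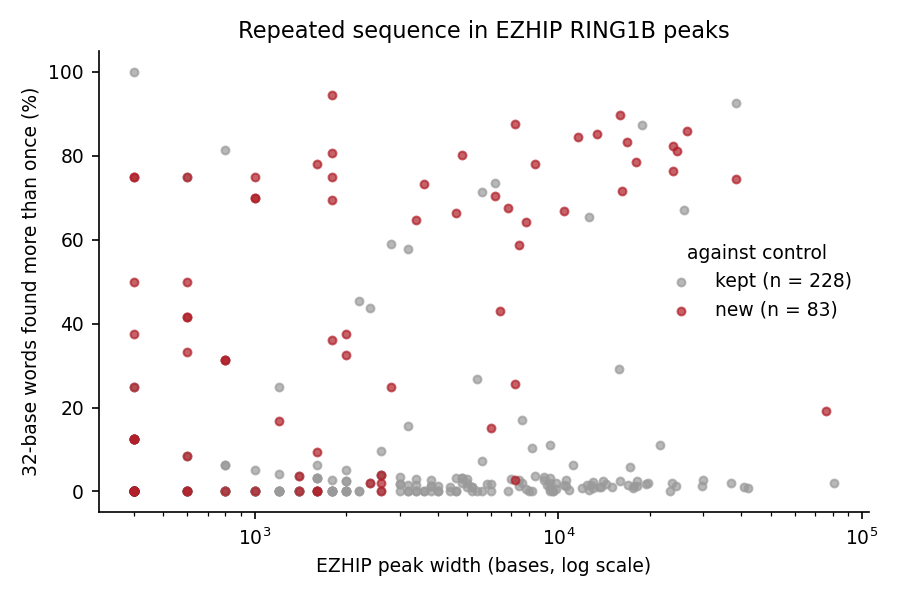
Width (bases, log scale) and repeated sequence (% of sampled 32-base words found more than 1 time in the genome) of the 311 EZHIP peaks, 228 kept (grey) and 83 new (red). Most kept peaks lay near 0%, and 33 new peaks lay above 50%.

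The new peaks with little repeated sequence were narrow. In 28 new peaks (33.7%) at most 10% of the words were repeated, and the median width of these was 599 bases. Of the 28, 18 were under 1000 bases, 16 held island-like sequence and 16 had a protein-coding start within 1000 bases. Their median distance to the nearest start, 574 bases, was close to the 682.5 bases of kept EZHIP peaks. The widest, of 7199 bases at chr19:60302401-60309599, held the start of D19Ertd737e. Next were 3 peaks of 2599 bases, one over the start of Sgk3, a serum and glucocorticoid regulated kinase gene, one over that of Zdhhc17, and the other 36280 bases from the nearest start, that of Hsd17b12. Over all 22208 protein-coding genes, 22 starts lay in an EZHIP peak but in no control peak, and 0 of these were starts of the 408 listed transcription factor genes, a count too small to set the lists apart.

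Lost peaks lay mostly far from what remained. Only 4 of 599 lost peaks (0.668%) lay within 10000 bases of an EZHIP peak and 60 (10.0%) within 100000 bases (6.59% when EZHIP peaks under 1000 bases were left out), while 405 (67.6%) were more than 1000000 bases from any. Of the 83 new peaks, 16 lay within 100000 bases of a control peak and 41 were more than 1000000 bases away. Neighboring control peaks had the same fate in 513 of 801 pairs (64.0%, 95% interval 60.7 to 67.3%), against 60.5% of pairs that would match if neighbors were independent at the kept share of 27%. Beside a kept peak the neighbor was kept in 45.2% of cases for gaps up to 20000 bases (14 of 31, 95% interval 29.2 to 62.2%) and in 47.1% for gaps over 20000 to 100000 bases (24 of 51, 95% interval 34.1 to 60.5%). Beside a lost peak it was kept in 23.9 and 23.5% at these gaps, and the intervals of kept and lost overlapped for the nearer gaps and not for the others. For gaps over 1000000 bases the values were 28.9 beside a kept and 25.2% beside a lost peak. Each pair was counted from both sides, so these intervals are narrower than they should be, and the widths of neighbors were not matched.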

How the data were processed

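ChIP-Seq for RING1B was analyzed in the control and EZHIP libraries. According to its methods section, the authors mapped reads on mm9 with bowtie1 (Bowtie 1.0.0 in the submitters' processing notes, which also name deepTools) and called broad peaks with MOSAiCS-HMM. By default bowtie1 also places reads that match several sites. The deposited lists hold chromosome, start and end of each peak, in bins of 200 bases, with no count, signal or score. Width is end minus start, and printed positions are 1-based.

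Overlaps were computed in Python 3.11.15 with pandas 2.3.3, numpy 2.4.6, numba 0.67.0 and scipy 1.17.1, drawn with matplotlib 3.10.9, and tested on simulated lists. Gene starts are those of GENCODE vM1, and sequence was read from NCBIM37, the assembly of mm9. CpG-island-like windows were moved by 100 bases and merged into 18335 islands. Repeats were measured with 32-base words taken every 50 bases.

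Named genes followed a rule: every HOX, PAX, DLX, IRX, GATA, INK4/CIP and Polycomb member with a start in a peak, up to 4 genes per state in the widest peaks for other lists, the 5 widest kept, lost and new peaks, the 3 most and 3 least covered kept peaks of 10000 bases or more, and the 3 widest new peaks with at most 10% repeated words (with a peak that ties in width). The 25 gene lists and the members were chosen with earlier results of these data known. No p-value was computed, because 1 library a side gives no replicate spread. The H3.3 K27M list was only counted, and libraries of H3.3 K27R cells and of the EED deletion line were not used here. Some genes that the rule names are not reported here.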

Additional observations from a re-analysis of the deposited data

How the results depend on the processing

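The kept and new shares were recomputed with peaks of at least 1000 bases, merged peaks, repeated sequence left out, autosomes only and other overlap rules. The covered portion, the central excess and the CpG ratio were recomputed with a minimum EZHIP width, wide control peaks and merged peaks, and the CpG ratio also with another definition of islands. Gene starts were recomputed with other definitions of a start, the minimum width and merged peaks, and neighbors with the minimum width and without repeated sequence. Other values, such as shares by gene list (apart from HOX) or width and CpG medians, were not recomputed. A share was taken as moved when it left the 95% interval of the reported value, and a median, difference or ratio beyond a change of 1.5 times. Of the 29 recomputed values that answer a comparison, 24 stayed within these limits and 5 moved. Only a difference or a ratio could change direction under these rules, and 0 of those did. With a minimum of 1000 bases, which removes EZHIP peaks and no control peak, 18.6% of control peaks were kept and 72.9% of neighboring pairs had the same fate, where independent neighbors would match in 69.7%. The share of lost peaks within 100000 bases of an EZHIP peak was then 6.59%. With EZHIP peaks of at least 1000 bases, the median covered portion of the 153 kept peaks rose to 50.9%. Without peaks of repeated sequence, 19.1% of EZHIP peaks were new. With a gene start within 5000 bases of a peak, 28.2% of starts at control peaks were covered, because that rule adds starts beside EZHIP peaks. The excess of central over outermost coverage ranged from 47.3 to 61.0 percentage points and the ratio of island-like to other coverage from 1.11 to 1.17 under the alternatives run for them. Any annotated transcript start, chosen after seeing the data, gave 17.9%. No paired analysis was possible because each group has 1 library. Read depth, which the lists do not give, bounds what a lost peak means: a domain not called may still carry RING1B below the calling limit.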

Other observations

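Genes outside the lists, chosen after their values were seen, also had covered starts. The Sim1 start, a bHLH-PAS factor of the hypothalamus, lay in a control peak of 27199 bases of which 23399 bases were covered, and that of Zdbf2, an imprinted gene, in a peak of 34999 bases of which 85.7% was covered. Nr2e1, a neural stem cell nuclear receptor, was covered in a peak retained over 39.7% of 35799 bases. Dmrt3, a spinal interneuron factor, was covered in a peak retained over 61.3% of 21199 bases. Cdk4, a cyclin-dependent kinase gene, was covered by an EZHIP peak of 599 bases in a control peak of 10799 bases, and Ccnd2, the cyclin D2 gene, lay uncovered in a peak retained over 20.8% of 9599 bases. The Tcfap2a start, a neural crest regulator, lay uncovered in a peak retained over 29.3% of 31399 bases, and that of the Notch ligand gene Dll1 lay uncovered in a peak retained over 25.5% of 21199 bases.

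The share of control peaks kept ranged from 11.8% on chromosome 16 (2 of 17, 95% interval 3.29 to 34.3%) to 40.4% on chromosome 4 (19 of 47, 95% interval 27.6 to 54.7%). Those intervals overlapped. Peak widths were not matched between chromosomes.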
